A study of Mus musculus with 49 samples.

Results

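The Hoxb cluster is a row of homeobox genes on mouse chromosome 11, and the 8 members from Hoxb2 to Hoxb9 were followed here across normal blood stem and progenitor cells and the leukaemias started from them. The members were chosen by name: each of the 8 symbols was matched to its Ensembl identifier among the 38253 genes of the RNA-seq table, and none was chosen for its level. HOX proteins bind DNA through the homeodomain, mostly together with PBX and MEIS partners, and the genes lie in the order in which they are used along the embryo. In blood, stem cells and early progenitors express HOX genes and lower them as they mature. The fusion MLL-AF9 keeps Hoxa9 and its neighbours active, whereas the B cluster is better known from normal stem cells: Hoxb4 expands them when overexpressed, and Hoxb5 marks the long-term repopulating fraction.

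RNA was sequenced from 49 samples of C57BL/6J mice with a labelled age of 6 to 12 weeks and the labelled genotype WT. Each sample came from an individual mouse according to the study, which does not say whether different sorted groups shared a mouse. The 30 normal samples were cells sorted from bone marrow as LT-HSC (long-term stem cells, n = 5), ST-HSC (short-term stem cells, n = 5), MPP (multipotent progenitors, n = 6), CMP (common myeloid progenitors, n = 5), GMP (granulocyte-macrophage progenitors, n = 5) and MEP (megakaryocyte-erythroid progenitors, n = 4). The 19 leukaemias arose in sublethally irradiated recipients of cells that carried MLL-AF9 (MA9) and green fluorescent protein on a retrovirus, and they are named by the cell that received it: 6 leukaemias of MPP origin (MPP:MA9), 6 of GMP origin (GMP:MA9), 4 of CMP origin (CMP:MA9) and 3 of ST-HSC origin (STHSC:MA9). There was no leukaemia of LT-HSC or MEP origin. The normal stem cells were Lin- Sca-1+ c-Kit+ cells split by CD150 and CD34, and CMP and GMP were Sca-1- cells split by FcγR. The leukaemias were bulk fluorescent cells, sorted from spleen according to the study's methods although the labels give bone marrow. Tissue, irradiated host, virus and transformation therefore change together between a leukaemia and its normal cell and cannot be told apart. In bulk RNA, fewer cells of a type and less RNA per cell cannot be told apart either.

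Values are FPKM, fragment numbers divided by the length of the transcript and the size of the library, rounded by the authors to 2 decimals. Depth relative to the median sample, read from the steps between low values, was 0.49 to 0.776 in LT-HSC, 0.529 to 0.765 in ST-HSC and 0.564 to 0.856 in STHSC:MA9, against 0.79 to 1.54 in MPP, CMP and GMP and 0.818 to 1.4 in the other leukaemias. MEP, at 0.619 to 0.69, were shallow as well. A value of 0 weighs less in these shallower groups than in the deeper leukaemias of MPP, CMP and GMP origin. An exact 0 may not always be silence. Of 76 ribosomal protein genes, 4 were listed at 0 in at least 1 sample, 2 of them in all. Atp5g2, an ATP synthase gene, was at 0 in 14 samples with a median of 11.6 FPKM. The other everyday genes looked at, among them Actb, Gapdh and Atp5g1, were never at 0. The summed level of 8 stem cell markers was 162 to 587 FPKM in LT-HSC, ST-HSC and MPP, 51.4 to 77 in CMP, 5.51 to 11.9 in GMP, 19.8 to 26.4 in MEP and 0 to 62.6 in the leukaemias. Neutrophil transcripts separated libraries within the stem cell groups. S100a8 was 10324 and 20265 FPKM in LT-HSC replicates 4 and 5 against 6.49 to 11 in replicates 1 to 3. In ST-HSC it was 2201 and 12625 FPKM in replicates 4 and 5 against 11.6 to 352, and member results that rest on these 4 libraries are also given without them.

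All 8 genes lie on the plus strand of chromosome 11 (assembly NCBIM37, the mm9 build, GENCODE M1 annotation). Hoxb9 (ENSMUSG00000020875, chr11:96132771-96137909) is at the upstream end, followed by Hoxb8 (ENSMUSG00000056648, chr11:96143219-96146639), Hoxb7 (ENSMUSG00000038721, chr11:96145571-96151650) and Hoxb6 (ENSMUSG00000000690, chr11:96153790-96162883). Hoxb5 (ENSMUSG00000038700, chr11:96163909-96167434), Hoxb4 (ENSMUSG00000038692, chr11:96177998-96182952), Hoxb3 (ENSMUSG00000048763, chr11:96184640-96207999) and Hoxb2 (ENSMUSG00000075588, chr11:96212946-96217003) complete the row. Reads can be shared between such genes, and a stretch of coding exon in which they are alike is shown for that reason for 5 members, 60 bases each, 5′ to 3′ on the plus strand, with capitals for the 34 bases that are the same in these 5 (56.7%).
Hoxb9: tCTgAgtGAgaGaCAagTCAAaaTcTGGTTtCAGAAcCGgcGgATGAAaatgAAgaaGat
Hoxb8: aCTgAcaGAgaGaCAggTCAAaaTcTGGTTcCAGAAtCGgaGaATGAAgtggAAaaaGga
Hoxb7: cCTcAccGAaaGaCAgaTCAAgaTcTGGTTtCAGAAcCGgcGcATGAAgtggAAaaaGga
Hoxb6: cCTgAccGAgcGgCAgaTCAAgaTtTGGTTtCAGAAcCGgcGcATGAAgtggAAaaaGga
Hoxb2: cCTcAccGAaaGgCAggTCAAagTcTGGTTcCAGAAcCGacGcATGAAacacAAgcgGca
These stretches encode part of the homeodomain. Identity between them ran from 42 bases (70%), for Hoxb2 with Hoxb8 and for Hoxb2 with Hoxb9, to 55 bases (91.7%), for Hoxb6 with Hoxb7. Over the whole coding sequences of these 5 the longest identical run was 37 bases, between Hoxb6 and Hoxb7, then 29 bases between Hoxb6 and Hoxb8. Hoxb7 and Hoxb8 overlap by 1069 exon bases on the same strand, so that 27% of the 31-base windows of Hoxb7 and 40.2% of those of Hoxb8 were shared with another gene. The antisense gene Hoxb3os covers 1632 exon bases of Hoxb2 and 1140 of Hoxb3, which left 49.4% of the windows of Hoxb2 and 40.6% of those of Hoxb3 shared. The libraries do not mark strand, so reads of Hoxb2 or Hoxb3 and of Hoxb3os cannot be told apart there. For Hoxb4 and Hoxb5, the pair on which most of the results turn, only 3.47% and 2.54% of windows were shared.

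Every member was low: Hoxb4 had the highest mean over the 49 samples, at 1.21 FPKM, followed by Hoxb3 (0.538), Hoxb5 (0.377), Hoxb2 (0.12) and Hoxb6 (0.103). Hoxb4 was above 0 in all 49 samples. Hoxb3 was above 0 in 27 of 30 normal samples and 12 of 19 leukaemias, Hoxb5 in 26 and 2, Hoxb2 in 21 and 2, and Hoxb6 in 18 and 0. The upstream end of the cluster was nearly empty, with Hoxb7 above 0 in 5 normal samples and 3 leukaemias, Hoxb9 in 3 and 1, and Hoxb8 in 2 and 0. Hoxb4 was thus the only member above 0 in every leukaemia, while Hoxb5 and Hoxb6, its neighbours on the upstream side, were at or near 0 there. In single leukaemias Hoxb4 was near 0 too, at 0.06 FPKM in GMP:MA9 replicate 3 and 0.11 in CMP:MA9 replicate 1. Because of these levels only Hoxb4 reached the minimum of a mean of 1 FPKM set for the tests against normal cells and among normal cells, and no member reached it among the leukaemias. The others were tested in the same models without that minimum.

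**Figure D1:**
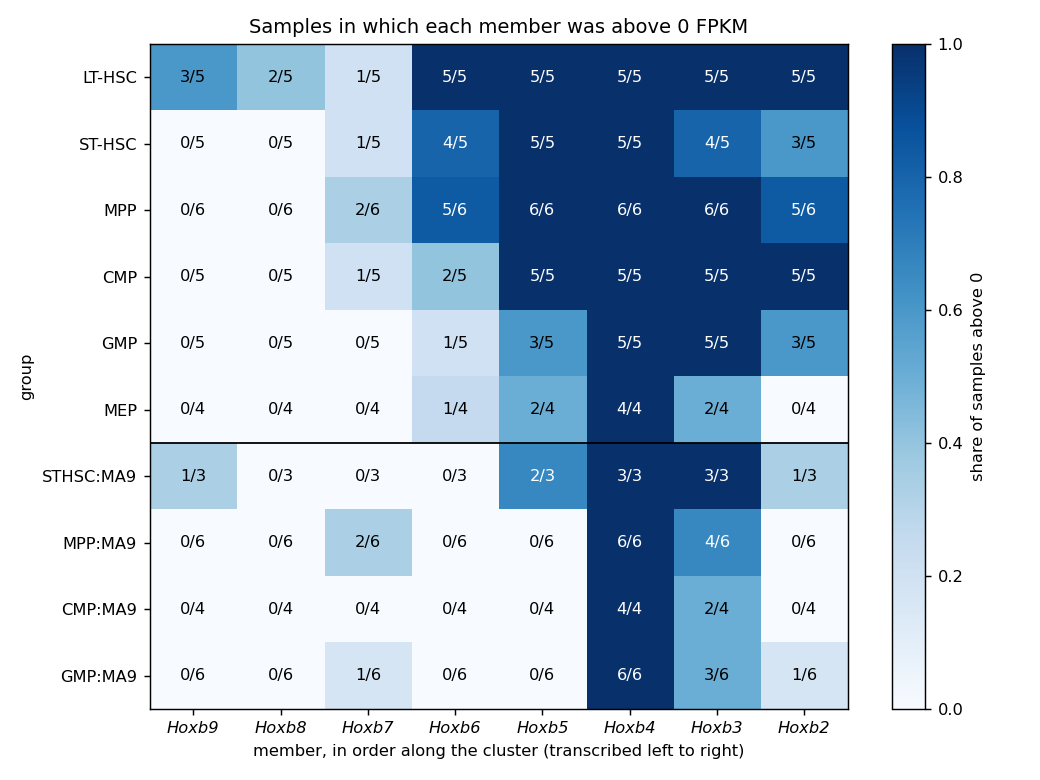
Heat map of the number of samples above 0 FPKM for each member (columns, in cluster order from Hoxb9 to Hoxb2) in each group (rows), with the number of samples above 0 written in the cells. Hoxb4 is above 0 in every sample, and Hoxb5 and Hoxb6 are above 0 in 2 and 0 of 19 leukaemias.

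Hoxb5, the marker of long-term stem cells, was highest in LT-HSC. Its values there were 1.95, 3.89, 2.50, 0.48 and 2.06 FPKM, and in ST-HSC they were 1.67, 0.85, 0.63, 0.65 and 0.25 FPKM. In MPP it ran from 0.31 to 0.82 FPKM with a median of 0.415. The ranges of these 3 groups overlapped each other, and all 3 lay above the other 7 groups. CMP reached 0.18 FPKM at most, GMP 0.05 and MEP 0.12. In STHSC:MA9 the values were 0.05, 0 and 0.10 FPKM, and the 16 leukaemias of MPP, CMP and GMP origin were all listed at 0. Multiplied by relative depth, the values of the 2 positive STHSC:MA9 samples were 0.0282 and 0.0856, next to 0.0222 to 0.0282 for the 4 lowest positive values of this gene in any sample, and the lowest values were 0.132 in ST-HSC and 0.413 in MPP. Both STHSC:MA9 values thus lay below every ST-HSC value on this measure, the nearer of them not far below.

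**Figure D2:**
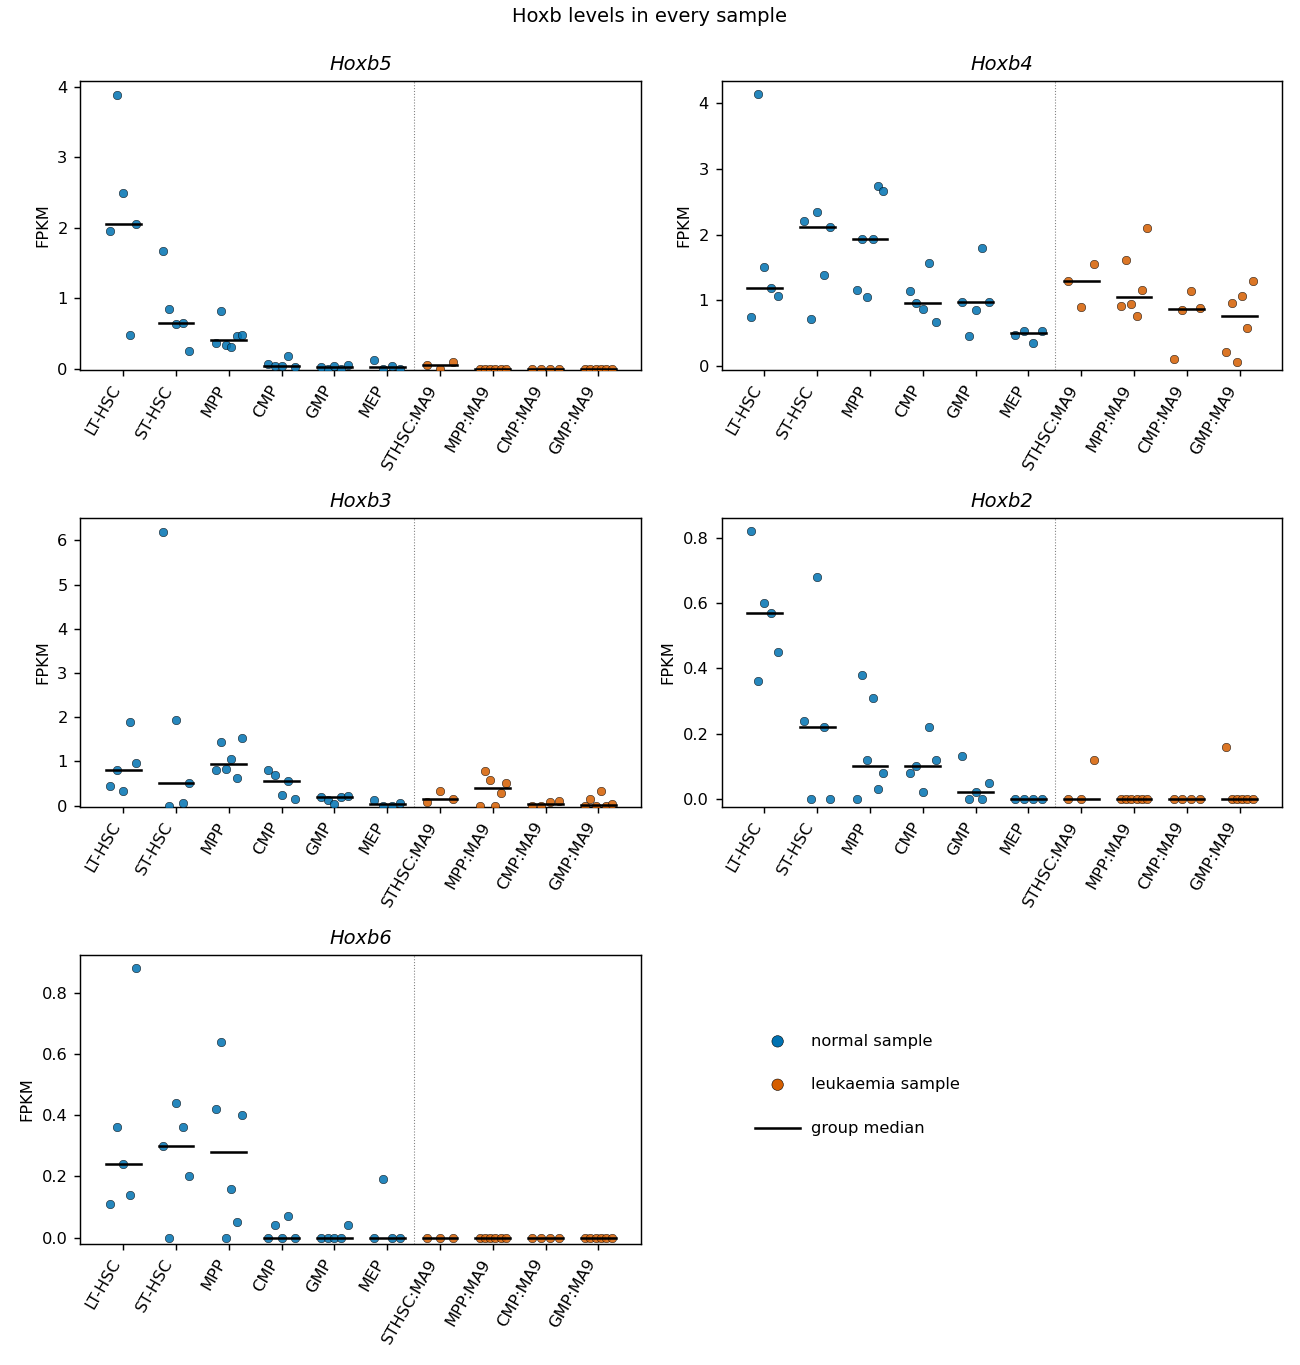
FPKM of Hoxb5, Hoxb4, Hoxb3, Hoxb2 and Hoxb6 (one panel each, linear axis) in each of the 49 samples, grouped by cell type and leukaemia, with a black line at the group median. Hoxb5 falls from a median of 2.06 in LT-HSC to 0.415 in MPP and is at 0 in most leukaemias, while Hoxb4 keeps medians of 0.77 to 1.29 in the 4 leukaemia groups.

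Among normal cells, Hoxb5 differed over the 6 groups (limma F test over all genes with no minimum, adjusted p = 9.34e-07), in a test that 47.6% of all genes passed. Hoxb2 (adjusted p = 0.000263), Hoxb9 (0.00551), Hoxb4 (0.0193) and Hoxb6 (0.0197) passed it too, of which Hoxb4 (0.0708) and Hoxb6 (0.0587) did not with the replicate number as a block. At the step between the stem cell groups, LT-HSC exceeded ST-HSC by 0.76 ± 0.20 (SE) on the log2(FPKM + 1) scale (adjusted p = 0.0225). This model did not pair samples by replicate number, and Hoxb5 also passed with that number as a block. On that scale and with no minimum, 1.21% of all genes were higher in LT-HSC at an adjusted p below 0.05, and 3 of the 8 members were: Hoxb5, Hoxb2 and Hoxb9. The Hoxb5 difference was 0.88 without the 4 libraries rich in S100a8 (adjusted p = 0.00111). It was 1.27 ± 0.43 with a pseudocount of 0.1 and then did not pass (adjusted p = 0.0951), and of the 3 members only Hoxb9 did (adjusted p = 0.0142). It was also lost when only the LT-HSC and ST-HSC samples set the spread (adjusted p = 0.543) and when LT-HSC replicate 2 (0.0652), ST-HSC replicate 3 (0.0582) or ST-HSC replicate 5 (0.0828) was left out. From ST-HSC to MPP the difference of 0.27 ± 0.19 did not pass (adjusted p = 0.425), although it did without the S100a8-rich libraries (0.46, adjusted p = 0.0251). From MPP to CMP every MPP sample lay above every CMP sample, as for 4.89% of the genes above 0 in any normal sample, and the difference of 0.44 ± 0.19 did not pass in the model of all normal groups (adjusted p = 0.175). It passed with a pseudocount of 0.1 (1.74, adjusted p = 0.008, beside 2.78% of genes called higher in MPP), with MPP and CMP alone (adjusted p = 0.00692) and without the S100a8-rich libraries (adjusted p = 0.0138).

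Leukaemias of the ST-HSC and MPP origins, whose normal cells held more Hoxb5 than CMP or GMP, were lower in it than those normal cells. The difference was -0.74 ± 0.12 (SE) for STHSC:MA9 against ST-HSC (adjusted p = 3.48e-06) and -0.54 ± 0.09 for MPP:MA9 against MPP (adjusted p = 7.78e-06), again on log2(FPKM + 1) with no minimum. The spread behind these values was shared over all groups of the model. The leukaemias of MPP, CMP and GMP origin, all at 0, added none to it, so the SE may be too small for ST-HSC and MPP. The groups did not overlap in either comparison, as for 13.4% of genes in the ST-HSC origin and 13.8% in the MPP origin that were lower in every leukaemia. With each library left out in turn these values ran from -0.86 to -0.59 and from -0.57 to -0.47, and both stayed past the threshold. CMP and GMP had little to lose: the ranges of CMP, 0.02 to 0.18 FPKM, and of GMP, 0 to 0.05 FPKM, stood against all 0 in their leukaemias, and neither change passed the test. The change differed among the 4 origins (F test, adjusted p = 0.000561), beside 21.8% of all genes. No fold change is given against groups at 0, and the scale used understates changes of values this low.

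Hoxb4, a regulator of stem cell self-renewal, was the most even member. Its mean ± SD was 1.73 ± 1.37 FPKM in LT-HSC (n = 5), 1.75 ± 0.689 in ST-HSC (n = 5), 1.91 ± 0.715 in MPP (n = 6), 1.04 ± 0.341 in CMP (n = 5), 1.01 ± 0.489 in GMP (n = 5) and 0.478 ± 0.0826 in MEP (n = 4). The stem cell and MPP groups were thus the highest and MEP the lowest. In the order of medians of the 6 normal groups each overlapped the next, except CMP and MEP. LT-HSC were spread widely, from 0.75 to 4.13 FPKM. The F test over the 6 normal groups passed for Hoxb4 (limma, adjusted p = 0.0146), as it did for 78.4% of the genes tested, and did not pass with the replicate number as a block (adjusted p = 0.0514). None of the 5 single steps passed, and the largest difference was 0.49 ± 0.24 (SE) from MPP to CMP (adjusted p = 0.178). Every CMP sample lay above every MEP sample in Hoxb4, Hoxb3 and Hoxb2, where 14.4% of genes parted in that direction, and for Hoxb4 the difference was 0.45 ± 0.26 on the log2 scale (adjusted p = 0.2). For Hoxb4 the test called 0 of 5 steps, and 0 of 5 also had an unadjusted p below 0.05. The shares of all genes called at these steps were 2.26% from LT-HSC to ST-HSC, 3.44% from there to MPP, 4.32% from MPP to CMP, 11.2% from CMP to GMP and 11.8% from CMP to MEP.

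The leukaemias held Hoxb4 at levels that overlapped those of their normal cells. The 3 STHSC:MA9 samples were at 1.29, 0.90 and 1.56 FPKM, and the 4 CMP:MA9 samples at 0.11, 0.85, 1.14 and 0.88 FPKM. MPP:MA9 ran from 0.76 to 2.10 FPKM with a median of 1.05, and GMP:MA9 from 0.06 to 1.29 with a median of 0.77. Each group's median stood below that of its normal cell, at 1.29 against 2.11 for ST-HSC, 1.05 against 1.93 for MPP, 0.865 against 0.96 for CMP and 0.77 against 0.97 for GMP. These differences were within the replicate spread. On log2(FPKM + 1) they were -0.26 ± 0.27 (SE) for STHSC:MA9 (adjusted p = 0.445), -0.36 ± 0.21 for MPP:MA9 (adjusted p = 0.133), -0.25 ± 0.25 for CMP:MA9 (adjusted p = 0.383) and -0.27 ± 0.22 for GMP:MA9 (adjusted p = 0.304). The limma test thus called Hoxb4 in 0 of 4 comparisons, with 0 of 4 at an unadjusted p below 0.05, where it called 24.2%, 27.1%, 27.8% and 22.4% of all genes for the ST-HSC, MPP, CMP and GMP origins. The change of Hoxb4 did not pass the test for a difference among origins (adjusted p = 0.987), which 38% of genes passed.

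**Figure D3:**
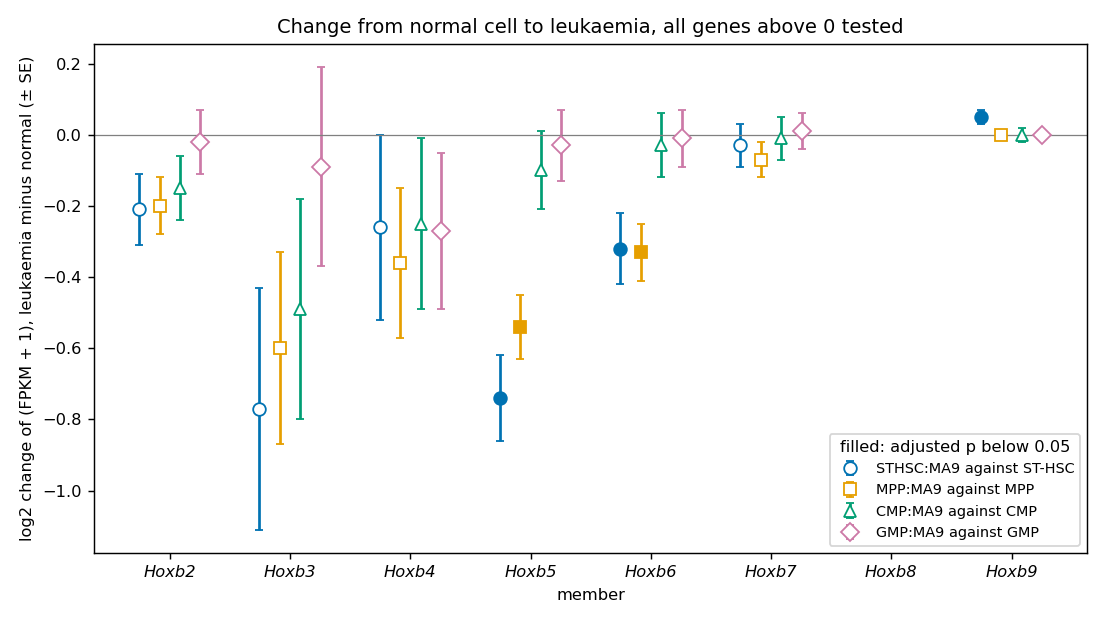
Difference between each leukaemia and its normal cell of origin on the log2(FPKM + 1) scale with no minimum on levels, for each member, with bars of 1 SE and filled points at an adjusted p below 0.05. Hoxb5 and Hoxb6 are the filled points on the lower side, for the ST-HSC and MPP origins, and Hoxb4 lies between -0.36 and -0.25 in all 4.

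Hoxb3, which acts with Hoxb4 in stem cell proliferation, was above 0 in most samples but varied widely within groups. ST-HSC held 6.20, 0, 1.93, 0.07 and 0.52 FPKM. LT-HSC held 0.45, 0.81, 0.33, 1.89 and 0.97 FPKM, and MPP ran from 0.63 to 1.53 with a median of 0.94. No order of the stem cell groups can be read from values so scattered. CMP ran from 0.16 to 0.81 FPKM, GMP from 0.03 to 0.21 and MEP from 0 to 0.13. Among leukaemias MPP:MA9 had the highest median, 0.4, with 0, 0.79, 0.59, 0, 0.29 and 0.51 FPKM. Of these, 1 sample, at 0.79, lay within the range of normal MPP. STHSC:MA9 held 0.08, 0.34 and 0.16 FPKM, CMP:MA9 0, 0, 0.09 and 0.10, and GMP:MA9 0 to 0.34. Every CMP:MA9 sample lay below every CMP sample for Hoxb3, Hoxb2 and Hoxb5, in a comparison in which 18.2% of genes parted in that direction.

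With no minimum, the change of Hoxb3 was -0.77 ± 0.34 for STHSC:MA9 (adjusted p = 0.084), -0.60 ± 0.27 for MPP:MA9 (adjusted p = 0.0719), -0.49 ± 0.31 for CMP:MA9 (adjusted p = 0.245) and -0.09 ± 0.28 for GMP:MA9 (adjusted p = 0.952). None passed, and the verdict turned on single ST-HSC libraries. Without ST-HSC replicate 2 or replicate 4 the STHSC:MA9 change passed (adjusted p = 0.0151 and 0.0186), and without the 4 S100a8-rich libraries it was -1.22 ± 0.34 (adjusted p = 0.00605). Over those samples the MPP:MA9 change passed as well (adjusted p = 0.0458). With only the groups compared in the model, Hoxb3 passed for the MPP origin (adjusted p = 0.0122) and the CMP origin (adjusted p = 0.0156).

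Hoxb2, at the downstream end, was highest in LT-HSC, with 0.82, 0.36, 0.60, 0.57 and 0.45 FPKM. ST-HSC held 0.24, 0, 0.68, 0.22 and 0, and the medians of MPP and CMP were both 0.1. GMP reached 0.13 FPKM and all 4 MEP samples were listed at 0. LT-HSC exceeded ST-HSC by 0.37 ± 0.11 on log2(FPKM + 1) with no minimum (adjusted p = 0.0462). That call was lost with the replicate number as a block (adjusted p = 0.063), with a pseudocount of 0.1 (0.0854), with only the 2 groups compared (0.512) and without the S100a8-rich libraries (0.197). In leukaemia Hoxb2 was above 0 in 1 STHSC:MA9 sample, at 0.12 FPKM, and in 1 GMP:MA9 sample, at 0.16 FPKM. No leukaemia differed from its normal cell beyond the threshold, with changes of -0.21 ± 0.10 for STHSC:MA9 (adjusted p = 0.12) and -0.20 ± 0.08 for MPP:MA9 (adjusted p = 0.0561). Without the S100a8-rich libraries Hoxb2 fell in both STHSC:MA9 (-0.30, adjusted p = 0.0376) and MPP:MA9 (adjusted p = 0.0452).

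Hoxb6, the upstream neighbour of Hoxb5, was above 0 mainly in the stem cell groups and MPP. LT-HSC held 0.11, 0.36, 0.24, 0.14 and 0.88 FPKM, ST-HSC 0.30, 0, 0.44, 0.36 and 0.20, and MPP 0 to 0.64 with a median of 0.28. CMP reached 0.07 FPKM, GMP 0.04 and MEP 0.19. All 19 leukaemias were listed at 0, also those of origins in which it had been expressed. With no minimum, Hoxb6 fell by 0.32 ± 0.10 for STHSC:MA9 (adjusted p = 0.00857) and by 0.33 ± 0.08 for MPP:MA9 (adjusted p = 0.000467). Groups at 0 throughout again added nothing to the shared spread. The call for STHSC:MA9 was lost with only the groups compared (adjusted p = 0.0767). Hoxb8 was at 0 in all 8 of these groups, and 2 of the 7 members tested, Hoxb5 and Hoxb6, fell from ST-HSC to STHSC:MA9, where 16.3% of genes were lower at an adjusted p below 0.05 on this rule, and the same 2 in MPP:MA9, where 22.8% were. For the CMP and GMP origins 0 of 7 passed, with 0 at an unadjusted p below 0.05, beside 20.7% and 15.1% of genes lower. With a pseudocount of 0.1 in place of 1, which lets values this low pass 2-fold, 2 members were called lower for the ST-HSC origin (Hoxb5 and Hoxb6), 4 for MPP (Hoxb5, Hoxb6, Hoxb3 and Hoxb2), 1 for CMP (Hoxb3) and 0 for GMP, beside 11.3%, 13.8%, 12.5% and 7.56% of genes. The difference in change among origins passed for Hoxb6 (F test, adjusted p = 0.0422) and did not without the S100a8-rich libraries (adjusted p = 0.059).

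The upstream members were seen in few libraries. Hoxb7 was above 0 in LT-HSC replicate 2 (0.22 FPKM), ST-HSC replicate 5 (0.12), MPP replicates 4 and 6 (0.40 and 0.11) and CMP replicate 2 (0.04), and in leukaemia at 0.07 FPKM in MPP:MA9 replicates 3 and 5 and 0.06 in GMP:MA9 replicate 2. After scaling by relative depth, 5 of these 8 values lay between 0.0616 and 0.07, near the smallest step of this gene. Hoxb9 was above 0 in 3 LT-HSC samples, at 0.27, 0.14 and 0.18 FPKM, and in 1 STHSC:MA9 sample at 0.11. Its difference of 0.15 ± 0.04 between LT-HSC and ST-HSC passed with no minimum (adjusted p = 0.0195) but not without LT-HSC replicate 5 (adjusted p = 0.057) or with only these groups compared (adjusted p = 0.554). STHSC:MA9 exceeded ST-HSC in Hoxb9 by 0.05 ± 0.02 (adjusted p = 0.0272, beside 14.5% of genes higher), which rests on the 1 library at 0.11 and was lost with only these groups compared (adjusted p = 0.506).

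Hoxb8, a gene whose forced expression immortalises myeloid progenitors, was above 0 only in LT-HSC replicates 1 and 2, at 0.27 and 0.74 FPKM, and was listed at 0 in the other 47 samples, all leukaemias included. The bases before its start carry repeated matches to the core letters bound by CDX proteins, which switch on HOX genes in the embryo, and are shown for that reason. The 250 bases upstream of the Hoxb8 start (RefSeq, assembly GRCm38.p6, chr11:96281655-96281904, plus strand, 5′ to 3′) are given with TTTAT and its reverse complement ATAAA in capitals.
Hoxb8: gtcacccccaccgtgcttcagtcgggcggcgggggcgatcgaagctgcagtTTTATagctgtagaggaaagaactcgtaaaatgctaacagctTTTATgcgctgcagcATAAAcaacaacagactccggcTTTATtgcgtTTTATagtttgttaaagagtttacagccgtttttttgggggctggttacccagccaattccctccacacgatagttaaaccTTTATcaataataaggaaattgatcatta
Searched on both strands, these letters occurred 6 times, as they or more often did in 0.393% of 32851 promoters of the same length, while 37.3% held at least 1 match. This window was shown for its matches, promoters of 2 members were at hand, and CCAAT and CACGTG were also looked up. The 0.393% is therefore a description of a chosen sequence and no test. ATAAA also overlaps the letters of TATA boxes, and a match is a description of the sequence. Cdx1, Cdx2 and Cdx4 were themselves listed at 0 in all 49 samples.

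Members were compared with one another within the 30 normal samples and within the 19 leukaemias on log2(FPKM + 1), as descriptions across samples that share cell types and depth. In normal cells Pearson's r was highest for Hoxb2 with Hoxb5 (0.69), then Hoxb5 with Hoxb6 (0.61) and Hoxb3 with Hoxb4 (0.59), and lowest among Hoxb2 to Hoxb6 for Hoxb2 with Hoxb4 (0.33). In leukaemia only Hoxb3 and Hoxb4 were above 0 often enough to compare, at 0.59. For Hoxb4, the genes of most similar pattern among 12665 were Irgm2 (r = 0.76 in normal cells, 0.63 in leukaemias), an interferon-induced GTPase, Itih5 (0.73 and 0.70) and Mecom (0.66 and 0.66), a transcription factor of stem cells. Median levels in normal cells and leukaemias were 8.17 and 4.9 FPKM for Irgm2, 9.43 and 2.66 for Itih5, and 14.2 and 1.25 for Mecom.

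The leukaemias were also compared with each other, to ask whether Hoxb levels kept a mark of the cell of origin. No member reached the minimum of 1 FPKM. With no minimum, the 6 members above 0 in any leukaemia gave 36 tests over 6 pairs, of which 0 passed by limma and 5 had an unadjusted p below 0.05. Of all genes, 4.88% passed this rule between STHSC:MA9 and MPP:MA9, 0.507% between STHSC:MA9 and CMP:MA9 and 0.769% between STHSC:MA9 and GMP:MA9. The shares were 0.095% between MPP:MA9 and CMP:MA9, 7.48% between MPP:MA9 and GMP:MA9 and 0.489% between CMP:MA9 and GMP:MA9. The lowest adjusted p was for Hoxb5 in STHSC:MA9 against MPP:MA9, at 0.07 ± 0.02 (adjusted p = 0.0708, or 0.0419 with a pseudocount of 0.1). Of the other members, Hoxb3 differed by 0.30 ± 0.13 (adjusted p = 0.197) and Hoxb4 by 0.43 ± 0.21 (adjusted p = 0.269) between MPP:MA9 and GMP:MA9, without passing. An F test over the 4 leukaemia groups passed for none of the 6 (lowest adjusted p 0.136, for Hoxb5), beside 6.02% of genes.

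The sum of all 8 members had a median of 5.18 FPKM in LT-HSC, 3.2 in ST-HSC and 4.04 in MPP. Medians were lower in CMP (1.87), GMP (1.32) and MEP (0.665). The ranges of LT-HSC (4.27 to 10.6), ST-HSC (1.57 to 10.6) and MPP (2.32 to 5.26) overlapped. Those of ST-HSC and MPP also overlapped CMP (0.97 to 2.6), and the sum was not tested. In leukaemia the medians were 1.42 for STHSC:MA9, 1.56 for MPP:MA9, 0.915 for CMP:MA9 and 0.87 for GMP:MA9. The composition differed as well: Hoxb4 made up a median of 27.9% of the sum in LT-HSC, 45.9% in ST-HSC, 45.8% in MPP, 60.4% in CMP, 78% in GMP and 81.1% in MEP. It made up 76.1%, 78.4%, 96.3% and 89.9% in the leukaemias of ST-HSC, MPP, CMP and GMP origin. What remained of the cluster in leukaemia was thus mostly Hoxb4, as in GMP and MEP.

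The A cluster, on another chromosome, is the one that MLL fusions are known to keep active. The sum of its 11 genes was 5.42 to 71.1 FPKM in normal samples and 52.2 to 145 in leukaemias, with medians of 62.1 for STHSC:MA9, 78.4 for MPP:MA9, 88 for CMP:MA9 and 95.7 for GMP:MA9. Normal MPP, at 54.5 to 71.1 FPKM, overlapped the leukaemias on this measure. The Hoxb sum was 0.4 to 10.6 FPKM in normal samples and 0.06 to 2.61 in leukaemias. As a share of both clusters Hoxb made up 3.85% to 33.6% in normal samples (median 7.97%) and 0.0827% to 4.45% in leukaemias (median 1.24%). Of the 7 Hoxa genes that could be tested, 1, 1, 5 and 7 were higher in the leukaemias of ST-HSC, MPP, CMP and GMP origin (limma, adjusted p below 0.05 and over 2-fold) and 0 were lower. The shares of all genes called in either direction were 24.2%, 27.1%, 27.8% and 22.4%. Median log2 changes of the 7 Hoxa genes were 0.80, 0.29, 1.42 and 2.62, beside -0.04, -0.09, -0.16 and 0.00 over all genes. Hoxa10, a target of MLL fusions, rose in all 4, by 1.51 ± 0.30, 1.07 ± 0.24, 3.11 ± 0.27 and 3.83 ± 0.25. Hoxa9, the best known of these targets, rose from CMP (1.68) and from GMP (2.78). Of all genes, 4.32% were called in either direction from MPP to CMP, 11.2% from CMP to GMP and 11.8% from CMP to MEP. At these normal steps 3 of 6 Hoxa genes, Hoxa5, Hoxa9 and Hoxa10, fell from MPP to CMP, 4 from CMP to GMP and 4 from CMP to MEP. With median-ratio scaling of the samples, which moved the median over all genes from 0.20 to 0.01 between CMP and GMP and from 0.14 to 0.00 between CMP and MEP, those last counts were 1 and 2.

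**Figure D4:**
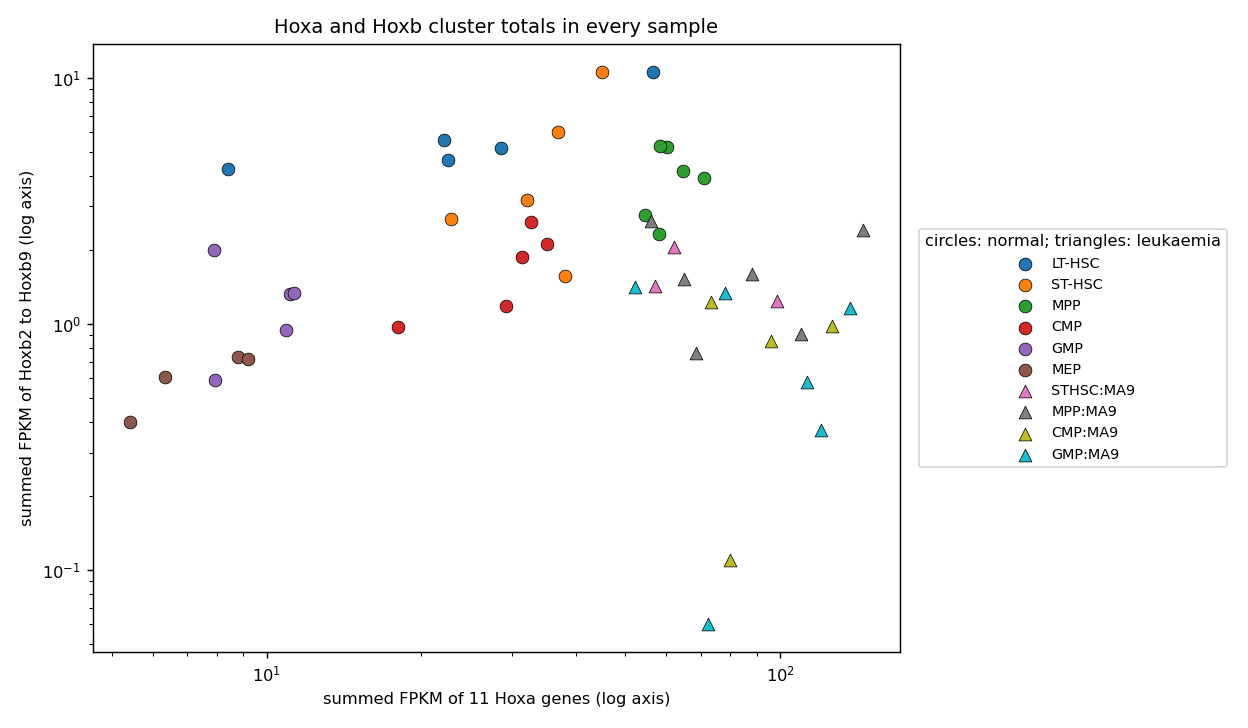
Summed FPKM of the 8 Hoxb members (vertical, log axis) against that of 11 Hoxa genes (horizontal, log axis) in each sample, with circles for normal samples and triangles for leukaemias. All leukaemias lie at 52.2 or more on the Hoxa axis and at 2.61 or less on the Hoxb axis.

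Antisense and neighbouring genes of the cluster were read in the same samples. Hoxb3os, the antisense transcript over Hoxb2 and Hoxb3, was above 0 in 28 of 30 normal samples and 12 of 19 leukaemias, with medians of 1.37 FPKM in LT-HSC, 1.16 in ST-HSC, 1.18 in MPP, 0.46 in CMP, 0.25 in GMP, 0.025 in MEP and 0 to 0.14 in the leukaemia groups. As reads of the strands cannot be told apart, part of these values may belong to Hoxb2 or Hoxb3, and the reverse. The antisense gene 0610040B09Rik was above 0 in 17 normal samples and 0 leukaemias, and Gm11536 in 10 and 0. Hoxb13, beyond Hoxb9, ran the other way, above 0 in 1 normal sample (0.02 FPKM) and in 11 of 19 leukaemias, up to 0.78 FPKM with a leukaemia median of 0.04. Hoxb1, Mir10a and Mir196a-1 were listed at 0 in all 49 samples. Of 22 other genes within the span or 250 kb of it, 3 were tested, all of them outside the cluster: Atp5g1, a subunit of ATP synthase, was lower in CMP:MA9 (-1.27) and GMP:MA9 (-1.34), and Snf8 and Ube2z were not called in any of the 9 comparisons with or among normal cells. None of the 19 measured Hox genes of other clusters or the cluster's ends reached the minimum.

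HOX proteins act with PBX and MEIS partners, and 5 of 8 cofactor genes could be tested. Pbx4 was lower in all 4 leukaemias, at -2.14, -2.59, -2.82 and -1.39 for the ST-HSC, MPP, CMP and GMP origins. Pbx3 was higher in MPP:MA9 (2.61), CMP:MA9 (2.07) and GMP:MA9 (3.05), and Meis1, which partners Hoxa9 in leukaemia, was higher in GMP:MA9 (2.65). Shares of all genes called in either direction were 24.2%, 27.1%, 27.8% and 22.4% for the 4 origins. The median over the 5 was -0.03, 0.40, 0.21 and 0.85 in the 4 origins, beside -0.04, -0.09, -0.16 and 0.00 over all genes. Among normal cells, CMP exceeded GMP in Meis1 (2.79) and Pbx4 (1.45), and MEP in Meis1 (1.99), beside 11.2% and 11.8% of all genes called in either direction. None of the 5 was called at the other 3 steps.

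Of the 12 genes listed for the MLL and menin complex, which keeps HOX genes active, all were tested, with 0, 1, 0 and 2 higher and 2, 1, 3 and 0 lower in the leukaemias of ST-HSC, MPP, CMP and GMP origin. Of all genes, 24.2%, 27.1%, 27.8% and 22.4% were called in either direction in these comparisons, so the list did not change more often than genes at large. Psip1, whose product LEDGF tethers MLL to chromatin, was lower in STHSC:MA9 (-1.61), MPP:MA9 (-1.68) and CMP:MA9 (-1.88). Men1, encoding menin, was lower in STHSC:MA9 (-1.03) and CMP:MA9 (-1.18), although the former was -0.91 without the S100a8-rich libraries. Mllt1, an elongation factor gene, was lower in CMP:MA9 (-1.15, or -0.99 with median-ratio scaling). Mllt3 was higher in MPP:MA9 (1.48) and GMP:MA9 (3.10) and Mll1 in GMP:MA9 (2.43). The retroviral fusion itself carries MLL and AF9 (Mllt3) sequence, and its part in these values was not tested. At normal steps Mllt3 was 1.33 higher in LT-HSC than in ST-HSC, 1.67 higher in CMP than in GMP and 1.33 lower in CMP than in MEP.

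Polycomb genes, whose products keep HOX genes silent, were counted in the same way over 12 tested genes. There were 0, 0, 0 and 1 higher and 2, 3, 3 and 0 lower in the leukaemias of ST-HSC, MPP, CMP and GMP origin. The shares of all genes called in either direction were 24.2%, 27.1%, 27.8% and 22.4%, so this list did not change more often either. Phc1 was lower in the first 3 (-2.37, -2.05 and -2.00) and so was Cbx2 (-1.46, -2.25 and -1.73), both subunits of the complex that compacts chromatin. Ezh2, the methyltransferase, was lower in MPP:MA9 (-1.14) and CMP:MA9 (-1.27), and Cbx7 was higher in GMP:MA9 (1.15). Among normal cells, calls were made from CMP to GMP alone, where Phc1 (1.81), Cbx2 (1.53) and Cbx7 (1.10, or 0.94 with median-ratio scaling) were higher in CMP. At that step 11.2% of all genes were called in either direction.

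Of 10 genes listed as regulators upstream of HOX genes, 6 could be tested. Rara, a retinoic acid receptor, was higher in all 4 leukaemias (1.47, 2.50, 2.67 and 2.89), and Rarg, another, in those of MPP (1.81), CMP (1.30) and GMP (1.62) origin. Nfya, a subunit of the NF-Y factor that binds the Hoxb4 promoter, was lower in STHSC:MA9 (-1.28) and CMP:MA9 (-1.26). For the ST-HSC, MPP, CMP and GMP origins 24.2%, 27.1%, 27.8% and 22.4% of all genes were called in either direction. At the normal steps none of the 6 passed both thresholds.

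Cell type markers also differed between the leukaemias and their normal cells. Over the same comparisons 6, 5, 6 and 1 of 7 tested stem cell markers were lower in the leukaemias of ST-HSC, MPP, CMP and GMP origin, and all 5 monocyte-macrophage markers were higher in those of ST-HSC, MPP and CMP origin and 4 in that of GMP origin. Among all genes 24.2%, 27.1%, 27.8% and 22.4% were called in either direction. The part of a difference in cell makeup in the fall of Hoxb5 and Hoxb6 was not tested.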

How the data were processed

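RNA-seq FPKM of 38253 Ensembl genes was analysed in 49 samples of 10 groups, taken with their replicate numbers from the sample titles. The authors deposited FPKM values that they had estimated with RSEM, which the submitters' processing notes name with the mm9 build, from amplified, unstranded cDNA libraries of total RNA. The aligner and annotation behind the FPKM are not given in the sources used here. The authors ran edgeR on counts from RSEM, and those counts were not analysed here. The table had 68 columns, of which 19 matched no label and were left out. The sources give 2 replicate experiments per cell type without saying which samples belong to which, so p-values may include that difference.

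Differences were tested on log2(FPKM + 1) with limma 3.58.1 in R 4.3.3 (a mean per group, two-sided moderated tests with a mean-variance trend, Benjamini-Hochberg adjustment over all genes tested). Genes entered a model when their mean over its samples reached 1 FPKM. The models were the 4 leukaemias with their 4 normal cells (40 samples, 12600 genes), the 19 leukaemias (12128 genes) and the 30 normal samples (12367 genes). Calls required an adjusted p below 0.05 and a change over 2-fold. Most members lie below that minimum, so the same models were also run on every gene above 0 in at least 1 sample (24019, 22102 and 23286 genes). There an adjusted p below 0.05 was used with no fold threshold, since a gene with all values below 1 FPKM cannot move 2-fold on this scale. Hoxb3 and Hoxb5 have some values above 1 FPKM, so for them a 2-fold change was possible. Alternatives were a pseudocount of 0.1, median-ratio scaling, no fold threshold, the replicate number as a block, a model of only the groups compared and the omission of each replicate. A correction for GC content and length, omission of the 4 stem cell libraries rich in S100a8, and combinations with no minimum were chosen with the data in view.

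The members, the gene lists (Hoxa cluster, other Hox genes, cofactors, MLL and menin, Polycomb, upstream regulators, neighbours and cell type markers) and the tests were chosen with earlier results of these data known. All members are named in every comparison, and beside them the 3 genes of highest Pearson r with each member of mean at least 1 FPKM and up to 4 called genes per list with the largest change. For the MLL and menin list all called genes are named instead. Some genes and coding stretches are not reported here. Groups shared replicate numbers. Deviations of same-numbered samples correlated at 0.142 to 0.682 in all 5 pairs of LT-HSC and ST-HSC, so the number was taken to pair those samples. In no other comparison did every pair exceed 0.1. The p-values for LT-HSC against ST-HSC do not use this pairing unless the replicate block is named. Relative depth came from the steps between low FPKM values, with 98.8% of 917 sample pairs fitted and residuals of SD 0.00933 in log2 units. It gives ratios of depth and no counts, so no counting interval was computed, and precision rests on the replicates. Simulated data were used to test the models: of 200 genes raised 8-fold for MPP:MA9 against MPP, 198 of 200 were recovered among 12252 genes with the minimum and 192 of 200 among 24019 without it, each with 2 false calls. The raised genes were drawn from those with a mean of at least 2 FPKM, which no member reached. The simulation therefore does not show how the models treat falls of genes as low as the members. Coordinates, exons and coding sequences came from GENCODE M1 on NCBIM37, and promoters from RefSeq on GRCm38.p6, where 2 members had an entry. Python 3.11.15, numpy 2.4.6, pandas 2.3.3 and matplotlib 3.10.9 were used.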

Additional observations from a re-analysis of the deposited data

Results flagged for a closer look

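Single libraries stood apart from the rest of their group (Dixon's test at 95%) for several members. Hoxb4 in LT-HSC replicate 2 was at 4.13 FPKM, and the summed FPKM of the 8 members in the same library at 10.6. Hoxb5 in MPP replicate 2 was at 0.82 FPKM. Hoxb2 was at 0.16 FPKM in GMP:MA9 replicate 1, where the other 5 libraries were at 0. Hoxb6 was at 0.04 FPKM in GMP replicate 5 and 0.19 in MEP replicate 2, alone in each group. Hoxb7 was at 0.22 FPKM in LT-HSC replicate 2, 0.12 in ST-HSC replicate 5, 0.40 in MPP replicate 4, 0.04 in CMP replicate 2 and 0.06 in GMP:MA9 replicate 2. In all, 11 of 62 sets of values stood out, where chance gives about 1 in 20, and a set with 1 value above 0 always does.

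With no minimum on levels, the 4 origins differed in how Hoxb5 changed between normal cell and leukaemia (limma F test, adjusted p = 0.000561), and likewise for Hoxb6 (adjusted p = 0.0422).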

How the results depend on the processing

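Counts of Hoxb calls were the same under a pseudocount of 0.1, median-ratio scaling, only the groups compared, no fold threshold, the GC content and length correction and omission of the S100a8-rich libraries. The main models with the minimum tested only Hoxb4, and no member between leukaemias. These counts, also those with a replicate left out, therefore say little about the other members. With the replicate block the number of members that differed among the 6 normal groups went from 1 to 0 (Hoxb4, adjusted p = 0.0514). With no minimum, the block removed Hoxb2 for LT-HSC against ST-HSC (adjusted p = 0.063) and Hoxb6 among origins (0.0793), while Hoxb5 stayed for both (0.0291 and 0.00113). Among the normal groups it removed Hoxb4 (0.0708) and Hoxb6 (0.0587). With no minimum, no block and pseudocount 1, 2 members differed among origins and 5 among the normal groups. With no minimum and a pseudocount of 0.1, calls over 2-fold lower in leukaemia went from 0 to 7 (Hoxb5 and Hoxb6 for ST-HSC and MPP origins, Hoxb2 and Hoxb3 for MPP, Hoxb3 for CMP), calls higher in the earlier normal cell from 0 to 1 (Hoxb5, MPP against CMP, 1.74, adjusted p = 0.008) while Hoxb5 (0.0951) and Hoxb2 (0.0854) were lost for LT-HSC against ST-HSC, and members that differed among origins and among normal groups to 2 and 6, since more genes were tested and low values weigh more. Hoxb7 for CMP against GMP turned to -0.24 (adjusted p = 0.00227) with no minimum and the GC content and length correction, which moves values listed at 0. The same correction gave adjusted p of 0.000787 to 0.0354 for Hoxb2, Hoxb5, Hoxb7 and Hoxb9 in STHSC:MA9 against MPP:MA9 and MPP:MA9 against GMP:MA9, where most of these values are 0. Leaving out each replicate gave 0 to 0 calls and 1 to 1 members among normal groups, and Hoxb2 for LT-HSC against ST-HSC was lost in 22 of 30 omissions. The low FPKM and unknown read numbers limit what the absence of a call can show.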
